A study of Mus musculus with 36 samples.

Results

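Bulk RNA sequencing of whole intestine from mouse embryos at E18.5 was used here to ask which genes stay changed in the absence of caspase-1, an inflammatory protease, when caspase-8 cannot process itself and its partner cFLIP is missing. The comparison took 6 of the 36 samples of the series, chosen by the genotype in their labels. The first group was 3 embryos homozygous for *Casp8* D387A (*Casp8* 1xDA/1xDA) that also lacked *Cflar*, *Mlkl* and *Casp1*, and these are called caspase-1-deficient embryos below. The second group was 3 *Mlkl*-/- embryos, called *Mlkl*-/- controls, with normal *Casp8*, *Cflar* and *Casp1* as far as their labels state. Both groups therefore lack *Mlkl*. The same set also held 3 *Casp8* 1xDA/1xDA *Cflar*-/- *Mlkl*-/- embryos in which *Casp1* was intact, called caspase-1-sufficient embryos, whose values are given beside the others for some genes. Its other embryos, used mainly to estimate the spread, carried *Casp8* D387A alone, or the caspase-1-deficient genotype with *Ifnar1* or *Fadd* also lost. Another set, used for comparison, held *Casp8* C362A embryos lacking *Mlkl*, some of them also *Casp1* or *Cflar*, and *Mlkl*-/- controls of its own. Each sample was labelled as a separate biological replicate, and embryos are numbered as in the labels. The *Cflar* and *Mlkl* alleles were deletions of part of each gene made by the study in C57BL/6N mice, and neither deletion nor point mutation is restricted to a tissue. No *Mlkl*-/- *Casp1*-/- library was analysed here, so the loss of caspase-1 itself cannot be told apart from the rest of the genotype. The caspase-1-deficient libraries also carry a number in their titles, 11893, that differs from the number 11449 shared by the *Mlkl*-/- and caspase-1-sufficient libraries. What these numbers mark is not stated, and they cannot be told apart from the genotypes. The study describes the *Mlkl*-/- controls as littermates of the caspase-1-sufficient embryos and states no such relation for the caspase-1-deficient embryos.

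Caspase-8 is recruited through the adaptor FADD to complexes formed by death receptors and pattern recognition receptors. Cleavage between its catalytic subunits stabilises the active homodimer, and the D387A substitution removes that cleavage site, while cFLIP is a catalytically inactive relative that pairs with caspase-8. MLKL is the pore-forming effector of necroptosis. Caspase-1 is activated in inflammasomes, where it matures interleukin-1β and interleukin-18 and cleaves gasdermin D, and mouse caspase-4 (also called caspase-11) acts on gasdermin D in response to intracellular lipopolysaccharide. The fetal intestinal epithelium takes up lipid, sugar and bile acids through absorptive enterocytes, and it answers interferon, tumour necrosis factor and microbial products with chemokines, antimicrobial lectins and oxidases.

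Between 19713382 and 21057272 reads were assigned to genes in each of the 6 libraries. Levels are given as RPKM, the read count of a gene scaled to its exon length and to the depth of the library after edgeR's normalisation, in the order of embryo 1, 2 and 3. *Casp1* (chr9:5298517-5307265, GRCm38) lay at 41.5, 42.6 and 44.4 RPKM in the *Mlkl*-/- controls and at 0, 0.0901 and 0.127 in the caspase-1-deficient embryos, which matches the labels of all 6 libraries. *Ifnar1* (23.1, 23.9 and 22.7 RPKM) and *Fadd* (9.63, 11.1 and 10.8 RPKM) were at the level of the controls (21, 21.3 and 21.8 and 12.9, 12 and 11.5 RPKM) in the caspase-1-deficient embryos, as their labels require. The counts do not check the other alleles, since *Casp8* D387A is a point mutation. The deletions take out part of *Cflar* and *Mlkl*, and the counts cover each whole gene without separating its exons. *Cflar* was at 5.8, 6.42 and 6.02 RPKM in the controls and 5.38, 6.03 and 6.04 in the caspase-1-deficient embryos. *Casp8* was at 25.9, 25.9 and 24.9 against 25.8, 24.5 and 35.5 RPKM (log2 fold change 0.16 ± 0.11, SE). In each group embryos 1 and 3 expressed *Xist* and embryo 2 expressed Y-linked genes. Of 8 markers of intestinal epithelium fixed for the tissue (*Cdh1*, *Epcam*, *Vil1*, *Cdx2*, *Krt8*, *Krt20*, *Lgals4* and *Fabp2*), only *Fabp2*, an absorptive fatty acid-binding protein, was called. It lay at 6579, 6418 and 6427 RPKM in the controls and 2614, 2890.4 and 2840.2 in the caspase-1-deficient embryos. In tissue of this kind, fewer cells of a type and less RNA per cell cannot be told apart.

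Of 18360 genes tested with edgeR's quasi-likelihood test, 796 (4.34%) were called in the caspase-1-deficient embryos at an adjusted p below 0.05 and a change of more than 1 on the log2 scale in either direction. They were divided almost evenly, with 396 genes higher (2.16%) and 400 lower (2.18%) than in the *Mlkl*-/- controls. The median log2 fold change of all genes tested was 0.02. The 3 embryos of each group did not overlap in 729 of the 796, and the same held for 37.5% of all genes tested. When each of the 6 libraries was left out in turn, 372 of the 796 genes were called each time. Leaving out caspase-1-deficient embryo 3 cost 322 calls, of which 182 were higher calls, and left 247 genes higher (1.32% of the 18690 then tested) and 349 lower (1.87%), those newly called included. Leaving out caspase-1-deficient embryo 1 cost 121 calls and embryo 2 cost 87. Leaving out *Mlkl*-/- control 1, 2 or 3 cost 207, 179 or 172. The fit used all 18 libraries of the set to estimate the spread, and fitted on the 6 libraries alone 456 genes were called, 186 higher and 270 lower.

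The 3 caspase-1-deficient embryos did not change to the same extent. Against the controls, embryo 1 alone gave 206 genes higher (1.12% of genes tested) and 354 lower (1.93%), 3.05% in all. Embryo 2 gave 163 higher (0.888%) and 180 lower (0.98%), 1.87% in all. Embryo 3 gave 741 higher (4.04%) and 687 lower (3.74%), 7.78% in all. A lone embryo was assumed to vary like the other groups. In each of the 3 embryos, 114 genes were called higher and 89 were called lower. In embryo 3 and no other, 557 genes were called higher and 472 lower. Of the 396 genes higher in the group, embryo 3 had the highest level in 337, and in 207 (52.3%) it lay more than 2-fold above both other embryos, on the scale of RPKM plus 0.1. Over all genes tested that was so for 517 of 18360 (2.82%), and among the 400 genes lower in the group for 12 (3%). The plot of genes called in each combination of embryos shows both patterns. In the caspase-1-deficient group 178 of 14073 well-counted genes (a mean of at least 50 reads, sex-linked genes left out) differed by more than 4-fold between embryos, and embryo 3 was the one farthest from the others in 163 of them. In the *Mlkl*-/- group 48 genes did so, and in the caspase-1-sufficient group 30.

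**Figure D1:**
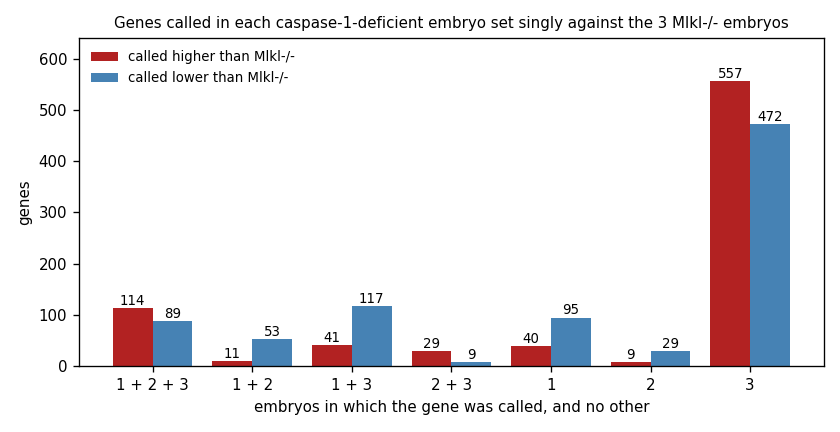
Number of genes (y axis) called higher (red bars) or lower (blue bars) than in the 3 *Mlkl*-/- controls, by the combination of caspase-1-deficient embryos in which the gene passed the test (x axis), so that each gene stands in a single bar of its colour. The longest bars are those of embryo 3 alone, with 557 genes higher and 472 lower, while 114 and 89 genes passed in each of the 3 embryos.

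The 15 largest rises whose embryos did not overlap held a class I-like molecule, a ubiquitin-like protein, chemokines, antimicrobial proteins and oxidases. *H2-M2*, a non-classical MHC class I gene, was nearly silent in the controls at 0.065, 0.0339 and 0.0645 RPKM and lay at 21.2, 23.8 and 72 RPKM in the caspase-1-deficient embryos (log2 fold change 9.38 ± 0.70, SE, adjusted p = 3.5e-07). It was also above the caspase-1-sufficient embryos (14, 7.18 and 10.1 RPKM). *Ubd*, which encodes the interferon- and TNF-inducible modifier FAT10, rose from 0.162, 0.226 and 0.806 to 36.1, 41.8 and 672 RPKM (log2 fold change 9.26 ± 1.23, adjusted p = 9.1e-05). Embryos 1 and 2 were alike and embryo 3 far above them, and without embryo 3 the log2 fold change of *Ubd* was 6.58, still past the threshold. *Saa3*, an acute-phase protein made by epithelium and macrophages, rose from 0.387, 0.242 and 0.192 to 29.2, 23.8 and 96.7 RPKM. *Reg3g*, a lectin that kills Gram-positive bacteria, went from 5.17, 3.41 and 4.15 to 153, 158 and 744 RPKM, with the caspase-1-sufficient embryos at 6737, 6912 and 5633. All 15 rises kept their call when any one of the 6 libraries was left out, and without embryo 3 their log2 fold changes lay between 1.98 and 8.59.

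Levels of *Nos2*, the inducible nitric oxide synthase, were 0.211, 0.232 and 0.116 RPKM in the controls and 8.17, 7.21 and 37.1 RPKM in the caspase-1-deficient embryos. *Nox1*, the colonic NADPH oxidase, went from 0.0984, 0.0615 and 0.0585 to 1.53, 1.65 and 8.91 RPKM. *Duoxa2*, the maturation factor of the epithelial oxidase DUOX2, went from 0.19, 0.165 and 0.817 to 1.94, 1.19 and 32.5 RPKM. Of these 3 oxidant-producing systems *Duoxa2* was the most uneven, with embryos 1 and 2 near 1 to 2 RPKM and embryo 3 more than 10-fold higher. *Slfn4*, a myeloid interferon-inducible gene, had the same shape at 2.45, 2.97 and 77.1 RPKM against 0.471, 0.57 and 0.53 in the controls. *Apol9b*, an interferon-inducible apolipoprotein L, had it too at 0.824, 1.25 and 15.4 against 0.0979, 0.306 and 0.0647 RPKM. Without embryo 3 the log2 fold changes of *Duoxa2*, *Slfn4* and *Apol9b* were 1.98, 2.37 and 2.72 instead of 4.89, 5.71 and 5.20, all past the threshold. The 3 did not pass with limma-voom or in a fit of the 6 libraries alone, and *Ubd* did not pass with limma-voom.

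**Figure D2:**
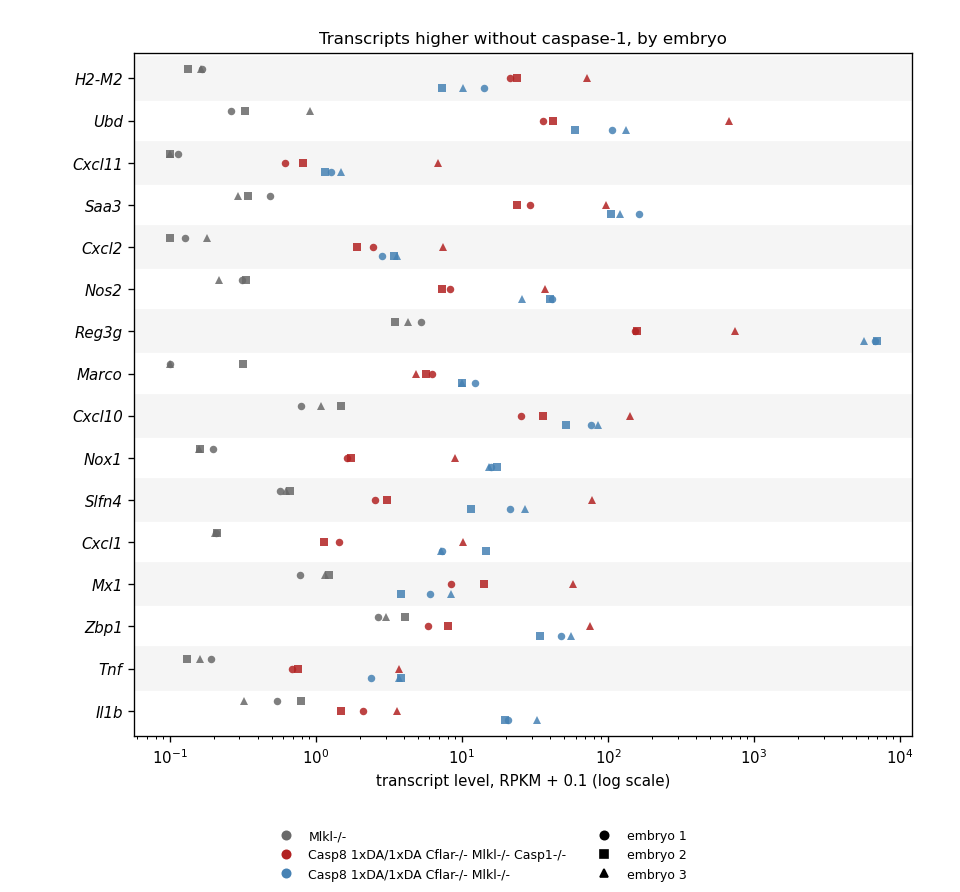
Level in RPKM plus 0.1 (log axis) of 16 genes called higher in the caspase-1-deficient embryos, in each of the 3 *Mlkl*-/- controls (grey), the 3 caspase-1-deficient embryos (red) and the 3 caspase-1-sufficient embryos (blue), with a marker shape per embryo number. The red points lie above the grey ones for each gene, and embryo 3 is the highest red point for most of them, with *Marco* as an exception.

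Several chemokines that recruit T cells and neutrophils rose. *Cxcl10*, a ligand of CXCR3 induced by interferons and NF-κB, was at 0.697, 1.38 and 0.987 RPKM in the controls and at 25.5, 35.8 and 142 in the caspase-1-deficient embryos (log2 fold change 6.05 ± 0.59, adjusted p = 6.4e-06). Its 3 caspase-1-deficient embryos were separate from the controls, and embryos 1 and 2 lay below each of the caspase-1-sufficient embryos (76, 51.9 and 85 RPKM) while embryo 3 lay above them. *Cxcl11*, another CXCR3 ligand, had 1 read over the 3 controls and 644 reads over the 3 caspase-1-deficient embryos, a ratio of 581 with a 95% counting interval of 104 to 22994. Most of these reads came from embryo 3, with 43, 61 and 540 reads or 0.515, 0.723 and 6.79 RPKM in embryos 1, 2 and 3. The caspase-1-sufficient embryos, at 1.16, 1.06 and 1.38 RPKM, lay above embryos 1 and 2 and below embryo 3. *Cxcl9*, the third CXCR3 ligand, reached 0.708, 0.467 and 1.98 RPKM from 0.157, 0.0909 and 0.0692, well under the caspase-1-sufficient embryos at 31, 17.1 and 32.8. The neutrophil attractants *Cxcl1* (0.106, 0.11 and 0.105 to 1.34, 1.04 and 10.2 RPKM) and *Cxcl2* (0.0271, 0 and 0.0807 to 2.37, 1.81 and 7.28 RPKM) rose by 5.20 and 6.59 on the log2 scale. *Ccl20*, which draws CCR6-bearing lymphocytes and dendritic cells to epithelium, rose from 1.99, 2.51 and 2.29 to 40.5, 40.8 and 90.7 RPKM, above the caspase-1-sufficient embryos (28, 24 and 19.3 RPKM). *Ccl2* and *Ccl7*, attractants of monocytes, rose to 6.21, 4.37 and 11 and 1.48, 1.74 and 4.94 RPKM from 0.93, 1.03 and 0.308 and 0.315, 0.328 and 0.749.

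Over the 26 chemokine genes tested, 11 rose and none fell, with a median log2 fold change of 2.26, and 10 were called higher without embryo 3. *Ccl5*, a T cell chemokine, was at 2.14, 1.61 and 15.4 RPKM in the caspase-1-deficient embryos and 1.52, 1.18 and 1.97 in the controls. It stood out in embryo 3 alone and did not pass (log2 fold change 2.01 ± 0.72, adjusted p = 0.055). *Cxcl5*, a neutrophil attractant, was called (0.289, 0.285 and 1.6 RPKM from 0.096, 0.10 and 0.0635), but not without embryo 3, where its log2 fold change was 1.69. *Ccl22*, a chemokine of dendritic cells, lay at 0.0615, 0 and 0.151 RPKM against 4.95, 3.37 and 8.93 in the caspase-1-sufficient embryos, and at 0, 0.0948 and 0.0226 in the controls. Of the 12 chemokines and cytokines that the study displays from these samples, 9 were called higher (median 3.14), and of the 12 genes it displays for pathogen defence 9 were (median 3.79). Without embryo 3 these counts were 8 (median 2.18) and 7 (median 2.14), and in the fit of the 6 libraries alone 8 and 5. The study chose both lists as higher in the caspase-1-sufficient embryos than in the *Mlkl*-/- controls used here, so their counts are not independent evidence of direction. Of the defence list *Acod1*, the enzyme that makes itaconate, was called with 2 reads over the controls and 54 over the caspase-1-deficient embryos, a ratio of 24.4 with a 95% counting interval of 6.43 to 206. Most of the 54 came from embryo 3, with 7, 10 and 37 reads in embryos 1, 2 and 3. The 3 members not called were *Ifitm1*, an interferon-induced membrane protein (27.1, 29.2 and 26.1 RPKM in the controls and 26.9, 19 and 35.9 in the caspase-1-deficient embryos), *Gzmb*, a cytotoxic granule protease (0.492, 0.0366 and 0.697 and 0.38, 0.313 and 0.631 RPKM), and *Prf1*, perforin, with 1 read over the controls and 6 over the caspase-1-deficient embryos. The caspase-1-sufficient embryos held *Ifitm1* at 142, 112 and 166 RPKM and *Gzmb* at 10.1, 9.49 and 15.6.

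Of 40 interferon-stimulated antiviral genes, 31 rose and none fell, with a median log2 fold change of 2.19. Taken singly the median was 0.93 in embryo 1, 1.28 in embryo 2 and 3.27 in embryo 3, and without embryo 3 it was 1.08 with 21 genes called. In a fit of the 6 libraries alone 17 were called higher. In the caspase-1-sufficient embryos the median was 1.72, with 30 of the 40 called higher against the same controls. *Mx1*, a dynamin-like GTPase that blocks influenza virus, rose from 0.685, 1.13 and 1.06 to 8.39, 14 and 57.7 RPKM (log2 fold change 4.80 ± 0.60, adjusted p = 5.7e-05). *Oas3*, a sensor of double-stranded RNA, rose from 0.342, 0.924 and 0.604 to 2.31, 4.3 and 31.5 RPKM, and *Ifit1bl1*, a relative of the antiviral RNA-binding protein IFIT1, from 1.62, 4.55 and 6.0 to 34, 39 and 201 RPKM. *Isg15*, the ubiquitin-like modifier of antiviral responses, went from 23.3, 48.7 and 28.4 to 151, 186 and 1257 RPKM (log2 fold change 3.99 ± 0.67, adjusted p = 5.9e-04). In each of these 4 genes embryos 1 and 2 lay near each other, above each control, and embryo 3 was several times as high as either. Without embryo 3 the log2 fold changes of *Mx1*, *Oas3* and *Ifit1bl1* were 3.55, 2.41 and 3.17, all past the threshold.

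Of 17 interferon-inducible GTPases, which act on the vacuoles of intracellular microbes, 15 rose and 1 fell (median 2.29), and 8 were called higher without embryo 3 and 5 in the fit of the 6 libraries alone. *Gbp5* rose from 0.644, 0.567 and 0.638 to 1.49, 2.19 and 9.39 RPKM and *Irgm1* from 10.5, 15.2 and 11 to 34.2, 46.7 and 157 RPKM. *Gbp10* had no read in the controls and 15 in the caspase-1-deficient embryos, at least 4.51-fold higher against a floor of 3 reads over the group, and its call was lost without embryo 3 or any one control. *Gbp2* was called (3.69, 4.43 and 4.45 to 5.62, 5.23 and 16.1 RPKM), but not when embryo 3 or any one control was left out, and lay at 0.37 on the log2 scale without embryo 3. The one member that fell was *Gbp2b*, from 1.36, 1.36 and 1.59 to 0.29, 0.0637 and 0.372 RPKM (log2 fold change -2.57 ± 0.47, adjusted p = 0.0011). *Gbp2b* is a near copy of its neighbours, so how reads were divided among them is uncertain. Of the interferon genes and their receptors, the 6 with enough reads to be tested did not pass by edgeR, limma-voom or DESeq2, with 3 at an unadjusted p below 0.05, which 33.9% of all genes tested had, and a median of -0.05. *Ifnb1* had 0 reads over the controls and 3 over the caspase-1-deficient embryos, and *Ifng* had 1 and 1.

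Promoters are shown here for genes that rose in each of the 3 embryos and whose sequence holds a letter pattern known from interferon or NF-κB responses. The windows hold the 250 bases before the annotated start from RefSeq (GRCm38.p6), written along the gene's strand, and both strands were searched. Capitals mark the core of the interferon-stimulated response element, searched as GAAA, any 2 bases and GAAA again, or its reverse complement, in *Isg15* (chr4:156200819-156201068, minus strand), *Ifit3* (chr19:34583279-34583528, plus strand) and *Cxcl10* (chr5:92348890-92349139, minus strand). In *Cxcl1* (chr5:90890995-90891244, plus strand), *Cxcl2* (chr5:90903649-90903898, plus strand) and *Nfkbia* (chr12:55492648-55492897, minus strand) they mark a common form of the κB site, searched as GGGA, any base and TTTCC, or its reverse complement. The same stretch cannot match both patterns in full, although matches may overlap in part.
Isg15: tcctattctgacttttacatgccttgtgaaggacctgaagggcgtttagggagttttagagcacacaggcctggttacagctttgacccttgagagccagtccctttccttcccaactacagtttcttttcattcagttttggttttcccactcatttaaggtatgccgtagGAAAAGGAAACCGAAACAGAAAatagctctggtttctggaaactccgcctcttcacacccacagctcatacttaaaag
Ifit3: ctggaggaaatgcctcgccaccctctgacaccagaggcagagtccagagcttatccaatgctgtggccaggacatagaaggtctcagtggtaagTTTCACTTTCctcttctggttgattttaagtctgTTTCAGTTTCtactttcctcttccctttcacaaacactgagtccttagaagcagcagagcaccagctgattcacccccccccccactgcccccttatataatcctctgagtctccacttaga
Cxcl10: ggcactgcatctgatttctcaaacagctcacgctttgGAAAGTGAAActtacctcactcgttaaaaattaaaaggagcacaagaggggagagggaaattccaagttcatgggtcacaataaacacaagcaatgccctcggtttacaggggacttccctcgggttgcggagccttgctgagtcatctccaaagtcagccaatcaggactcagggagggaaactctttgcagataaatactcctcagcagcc
Cxcl1: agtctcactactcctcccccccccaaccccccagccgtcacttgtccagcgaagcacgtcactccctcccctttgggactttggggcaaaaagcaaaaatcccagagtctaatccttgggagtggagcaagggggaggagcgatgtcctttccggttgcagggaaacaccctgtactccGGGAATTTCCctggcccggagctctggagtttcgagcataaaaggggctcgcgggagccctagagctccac
Cxcl2: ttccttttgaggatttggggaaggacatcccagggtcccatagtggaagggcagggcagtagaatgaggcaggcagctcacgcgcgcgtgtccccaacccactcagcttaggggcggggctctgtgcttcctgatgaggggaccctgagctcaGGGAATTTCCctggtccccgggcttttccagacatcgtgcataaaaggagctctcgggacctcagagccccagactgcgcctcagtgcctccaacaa
Nfkbia: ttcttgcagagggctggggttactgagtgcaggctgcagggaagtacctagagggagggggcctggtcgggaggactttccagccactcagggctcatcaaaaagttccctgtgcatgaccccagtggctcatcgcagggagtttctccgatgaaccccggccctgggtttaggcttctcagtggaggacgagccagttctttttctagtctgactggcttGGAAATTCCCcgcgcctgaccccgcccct

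The match in *Cxcl10* began 213 bases before the start and those in *Cxcl2* and *Nfkbia* 97 and 29 bases before it, while *Isg15* held 3 matches that overlap each other and *Ifit3* 2. Among the 12582 tested genes with a promoter in the table, 3.31% held the interferon pattern and 0.509% the κB pattern. Of the 276 called higher with a promoter, 43 (15.6%) held the first and 9 (3.26%) the second. Among the 296 called lower the shares were 4.05% and 0.338%. Of the 88 such promoters of genes called higher in each of the 3 embryos, 20 (22.7%) held the interferon pattern and 6 (6.82%) the κB pattern. *H2-M2*, *Ubd*, *Marco*, *Reg3g*, *Slfn4* and the NF-κB-induced *Icam1* and *Birc3* held neither within this window, and *Saa3* held 1 match to the interferon pattern. In the list of NF-κB targets and feedback genes 2 of 14 promoters (14.3%) held the κB pattern. In the interferon-stimulated antiviral list 13 of 30 (43.3%) held the interferon pattern. A match is a run of letters and was not tested as a binding site.

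Among genes that present antigen, the class I calls were all higher and the class II calls all lower, and the embryos differed in both. Of 17 MHC class I presentation genes 8 rose and none fell (median 1.06). *H2-Q6* and *H2-Q7*, class Ib genes whose near-identical copies make their read counts uncertain, rose from 0.387, 0.831 and 0.863 and 0.722, 0.684 and 0.619 RPKM to 5.84, 7.11 and 51.2 and 3.02, 2.9 and 24.4 RPKM. *Nlrc5*, the transactivator of class I genes, rose from 0.23, 0.278 and 0.222 to 0.644, 0.969 and 4.46 RPKM. The median of this list was -0.01 in embryo 1, 0.31 in embryo 2 and 1.97 in embryo 3, and 3 genes were called higher without embryo 3. Of 7 MHC class II genes 4 fell and none rose, with a median of -1.03. *H2-Aa* fell from 29.5, 30.3 and 27 to 10.1, 8.46 and 16.3 RPKM (log2 fold change -1.32 ± 0.19, adjusted p = 2.0e-04), *H2-Eb1* from 19.7, 19.6 and 18.2 to 5.91, 5.54 and 11.5 RPKM and *H2-DMb1* from 3.16, 2.99 and 2.46 to 0.907, 0.864 and 1.6 RPKM. Here embryos 1 and 2 were the lowest and embryo 3 lay between them and the controls, and without embryo 3 there were 5 calls and a median of -1.30. In the caspase-1-sufficient embryos *H2-Aa* was at 14.8, 14.1 and 20.5 RPKM, and none of the 7 was called against the controls.

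Of 20 NF-κB targets and feedback genes tested, 11 rose and none fell (median 1.37), and 8 were called without embryo 3. *Nfkbia*, the inhibitor that NF-κB induces against itself, rose from 22.2, 18.6 and 19.4 to 58.1, 56.5 and 141 RPKM (log2 fold change 2.09 ± 0.25, adjusted p = 3.8e-05). *Icam1*, an endothelial and epithelial adhesion molecule for leukocytes, rose from 7.1, 6.07 and 6.21 to 20.6, 20.3 and 46.6 RPKM, and *Tnip3*, a binding partner of the deubiquitinase A20, from 0.15, 0.026 and 0.111 to 0.462, 0.412 and 2.73 RPKM. *Madcam1*, the mucosal ligand of the lymphocyte integrin α4β7, was even across embryos at 42.6, 41.1 and 41.8 RPKM against 10.8, 11.5 and 11 in the controls (log2 fold change 1.92 ± 0.09, adjusted p = 2.3e-09). *Madcam1*, *Ccl20* and *Isg15* lie outside the rule for named genes and were chosen after their values were seen, as were other list members given below as examples.

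**Figure D3:**
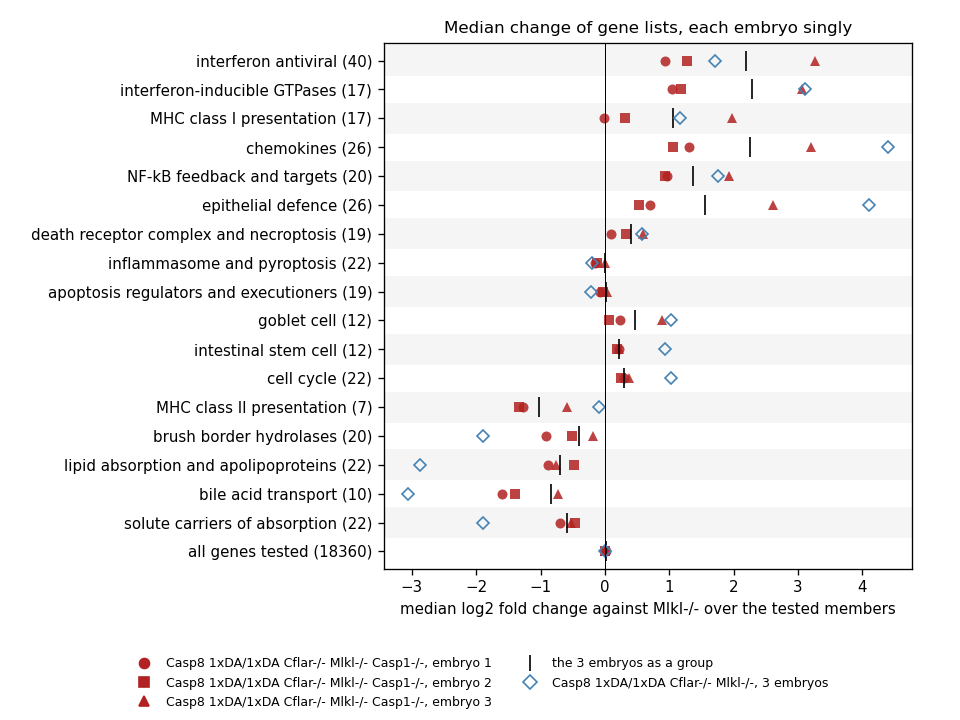
Median log2 fold change against the *Mlkl*-/- controls of the tested members of 17 gene lists and of all genes tested, for each caspase-1-deficient embryo singly (markers), the 3 embryos as a group (bar) and the caspase-1-sufficient embryos (diamond), which share the same controls. Of the 3 embryos, embryo 3 lies farthest to the right for the interferon, chemokine and defence lists, and the lists of absorptive genes lie to the left with the caspase-1-sufficient embryos farther left.

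Cytokine and cell death genes rose in part. *Tnf* rose from 0.0923, 0.0321 and 0.061 to 0.583, 0.658 and 3.64 RPKM (log2 fold change 4.62 ± 0.81, adjusted p = 8.5e-04). *Il1b*, the precursor that caspase-1 matures, rose from 0.446, 0.697 and 0.221 to 2.01, 1.39 and 3.48 RPKM (log2 fold change 2.33 ± 0.40, adjusted p = 7.7e-04), and the caspase-1-sufficient embryos held 20.5, 19.6 and 32.5 RPKM. *Il6* had 3 reads over the controls and 9 over the caspase-1-deficient embryos, a ratio of 2.71 whose 95% counting interval of 0.676 to 15.5 includes no change, while it lay at 0.694, 1.2 and 0.642 RPKM in the caspase-1-sufficient embryos. *Il1rn*, the interleukin-1 receptor antagonist, rose from 0.41, 0.214 and 0.758 to 1.48, 1.1 and 4.14 RPKM. *Il18bp*, which neutralises interleukin-18, was called (1.1, 1.46 and 1.6 to 1.8, 2.66 and 11.7 RPKM) but not without embryo 3 (0.69 on the log2 scale) or without control 1. In the list of interleukin-1 and interleukin-6 family genes 5 of 17 rose and none fell (median 0.46), and 2 were called without embryo 3 or without control 1, 3 without control 2 and 1 in the fit of the 6 libraries alone.

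Of 19 genes of the death receptor complex and necroptosis 5 rose and none fell (median 0.41): *Tnf*, *Birc3*, *Zbp1*, *Mlkl* and *Tnfsf10*. Without embryo 3 the count was 3 (median 0.23), as it was in the fit of the 6 libraries alone, and without embryo 1 it was 8. *Zbp1*, the nucleic acid sensor that engages RIPK3, rose from 2.59, 3.98 and 2.91 to 5.8, 7.87 and 75 RPKM (log2 fold change 3.23 ± 0.72, adjusted p = 0.0046), and without embryo 3 it was at 1.12 on the log2 scale, still called. Taken singly its log2 fold changes were 0.88, 1.32 and 4.57 in embryos 1, 2 and 3. Embryos 1 and 2 lay below each of the caspase-1-sufficient embryos (47.6, 34.3 and 55.9 RPKM) and embryo 3 lay above them. *Zbp1* did not pass with limma-voom or in a fit of the 6 libraries alone. Reads assigned to *Mlkl*, which is partly deleted in both groups, were at 2.44, 2.39 and 2.67 RPKM in the controls and 3.13, 3.72 and 23 in the caspase-1-deficient embryos. The *Mlkl* call was lost without embryo 3 (0.45 on the log2 scale instead of 1.99). *Ripk1* and *Ripk3*, the kinases of the necrosome, had log2 fold changes of -0.10 and 0.92 and did not pass. None of 19 apoptosis regulators and executioners was called, by edgeR, limma-voom or DESeq2, 7 had an unadjusted p below 0.05 in edgeR, which 33.9% of all genes tested had, and their median was 0.01. Taken singly, embryos 1, 2 and 3 had medians of -0.08, -0.03 and 0.03 over these genes, and 1 of the 19 was called higher without caspase-1-deficient embryo 1 or 2. Of 22 inflammasome and pyroptosis genes *Casp4* and *Il1b* rose and *Casp1*, the targeted gene, fell. *Casp4* rose from 9.1, 9.81 and 7.91 to 21.6, 21 and 65.8 RPKM (log2 fold change 2.01 ± 0.33, adjusted p = 5.5e-04). *Gsdmd*, the pore-forming substrate of both caspases, lay at 127, 140.5 and 124 RPKM in the controls and 99.5, 125 and 217 in the caspase-1-deficient embryos (log2 fold change 0.17 ± 0.19).

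*Casp4* is a neighbour of *Casp1*, and the chromosome around the targeted gene held other calls too. Within 5 Mb of *Casp1*, 7 of 37 tested genes were called, or 6 of 36 (16.7%) without *Casp1* itself, against 4.34% of all genes tested. Besides *Casp1* these were *Casp4*, *Birc3*, an inhibitor of apoptosis induced by NF-κB, the matrix metalloproteinases *Mmp7*, *Mmp10* and *Mmp12*, and the pseudogene *Cbx3-ps8*. *Birc3* rose from 4.81, 4.28 and 4.74 to 9.66, 9.24 and 18.9 RPKM, while *Mmp7* (0.991, 2.75 and 4.92 to 6.04, 3.87 and 23.1 RPKM), *Mmp10* (1.23, 1.43 and 0.958 to 1.45, 1.72 and 11.5 RPKM) and *Mmp12* (0.038, 0 and 0.0377 to 0.0799, 0.113 and 0.299 RPKM) lost their calls without embryo 3, at 0.78, 0.40 and 1.86 on the log2 scale. Each of these 3 calls was also lost without at least 1 control. *Casp4*, *Birc3* and the 3 metalloproteinases were also higher in the caspase-1-sufficient embryos, whose *Casp1* is intact, with *Casp4* at 35.4, 24.9 and 33.6 RPKM, *Birc3* at 20.0, 19.6 and 17.9 and *Mmp7* at 141, 167 and 133. *Cbx3-ps8* had 0 reads over the controls and 6 over the caspase-1-deficient embryos, and its call was lost without embryo 2 or 3 or any one control. Sequence carried along with the *Casp1* allele was not tested. Around *Casp8* and *Cflar* 1 of 70 genes was called (1.43%), *Als2cr12*, which fell from 6.46, 5.07 and 4.93 to 2.01, 2.61 and 2.01 RPKM.

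Of 26 epithelial defence genes tested, 14 rose and none fell (median 1.55), 9 without embryo 3, and against the same controls 23 rose in the caspase-1-sufficient embryos (median 4.10). *Reg3b*, a lectin directed at Gram-negative bacteria, rose from 45.7, 27.4 and 34.9 to 489, 471 and 1852 RPKM against 14462, 12672 and 11844 in the caspase-1-sufficient embryos. Compared directly, 17 of the 26 were lower in the caspase-1-deficient than in the caspase-1-sufficient embryos, *Reg3g* with a log2 difference of -4.19 (adjusted p = 2.0e-06). Among 18 genes of fetal-like, regenerating epithelium 6 rose and 1 fell (median 0.38), and 3 were called higher without embryo 3 (median 0.11) and 2 in the fit of the 6 libraries alone. The one that fell was *Clu*, clusterin (5.38, 5.8 and 21.7 to 4.52, 5.59 and 5.11 RPKM), whose call was lost without control 3 or any one caspase-1-deficient embryo. *Areg*, an EGF receptor ligand, rose from 2.2, 2.16 and 2.02 to 5.65, 4.96 and 23.1 RPKM, and *Cldn4*, a tight junction protein, from 26.1, 25.9 and 27.3 to 73.6, 58.8 and 211 RPKM. *Atf3*, a stress-induced transcription factor, rose from 2.81, 4.15 and 3.55 to 12.9, 12.4 and 36.5 RPKM. It was among 2 of 14 stress response genes called higher, 1 without embryo 3 or any one control, and the list's median was 0.22.

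Some myeloid genes rose evenly across the 3 embryos. *Marco*, a scavenger receptor of macrophages, went from 0, 0.218 and 0 RPKM in the controls to 6.12, 5.58 and 4.73 in the caspase-1-deficient embryos (log2 fold change 6.22 ± 0.44, adjusted p = 1.9e-07). *Lyz2*, the macrophage and neutrophil lysozyme, rose from 21.6, 21.2 and 19.8 to 68.7, 60.6 and 73.6 RPKM, and *Adgre1*, which encodes F4/80, from 2.1, 2.49 and 2.62 to 5.49, 4.53 and 5.16 RPKM, although the *Adgre1* call was lost without control 1. In none of these 3 did embryo 3 stand apart from the other embryos. They were 3 of 14 macrophage and monocyte markers called (median 0.49), whose summed level was 262, 250 and 235 RPKM in the controls and 312, 297 and 461 in the caspase-1-deficient embryos. Of 12 neutrophil markers only *Ltf* was called, and not without embryo 3 or any one control (without embryo 3, 0.11 on the log2 scale instead of 1.53). Of 10 T and NK cell markers *Gzma*, a cytotoxic granule protease, fell from 4.96, 3.24 and 3.13 to 1.31, 1.65 and 2.32 RPKM, whereas it was at 15.3, 11.6 and 19.7 in the caspase-1-sufficient embryos. Its call was lost without caspase-1-deficient embryo 1 or 2 or control 1, with log2 fold changes over the leave-outs from -1.35 to -0.86.

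The 3 caspase-1-deficient embryos lay within 2-fold of each other for 274 of the 400 genes that fell (68.5%) and for 125 of the 396 that rose (31.6%), against 90.5% of all genes tested. Several of the named genes that fell encode enzymes found in absorptive epithelium and in liver, although no fixed list of such enzymes was counted. The summed level of 10 liver markers was also lower in the caspase-1-deficient embryos (646, 636 and 495 RPKM) than in the controls (1227, 1428 and 1006 RPKM). Among the controls this sum varied less than *Fgg*, a liver plasma protein gene (1.23, 10.5 and 0.836 RPKM), so it was not taken as a measure of liver RNA. The part of liver RNA in these falls was not tested. *Fbp1*, fructose-1,6-bisphosphatase, fell from 205, 185 and 202 RPKM in the controls to 20.3, 24.9 and 13 in the caspase-1-deficient embryos (log2 fold change -3.35 ± 0.19, adjusted p = 2.0e-08). *Pck1*, the cytosolic phosphoenolpyruvate carboxykinase, fell from 122, 116 and 119 to 20.2, 30.6 and 15.2 RPKM, and *G6pc*, the catalytic subunit of glucose-6-phosphatase, from 16.9, 16 and 16 to 2.32, 3.89 and 1.84 RPKM. All 3 belong to gluconeogenesis, and all 3 were lower still in the caspase-1-sufficient embryos, at 0.555, 0.907 and 0.73, 2.29, 1.92 and 1.04 and 0.0179, 0.0741 and 0 RPKM. *Gatm*, which makes the creatine precursor guanidinoacetate, fell from 88.7, 68.8 and 111 to 11.5, 7.07 and 12.9 RPKM and was alike in the caspase-1-sufficient embryos (11.2, 10.6 and 9.72). *Acot5*, a peroxisomal acyl-CoA thioesterase, fell from 5.64, 4.74 and 5.4 to 0.449, 0.74 and 0.471 RPKM, and *Leap2*, a hepatic and enterocyte peptide that antagonises the ghrelin receptor, from 258, 269 and 321 to 63.4, 65.9 and 46 RPKM. These 6 kept their calls without any one library. *Glyat*, a mitochondrial glycine acyltransferase, and *C8b*, a component of the terminal complement complex, belonged to the 15 largest falls, as did *Fbp1*, *G6pc*, *Gatm* and *Acot5*, and lay at 0.974, 0.761 and 0.682 and 1.26, 1.45 and 1.01 RPKM in the controls and 0.0516, 0.23 and 0.0542 and 0.0609, 0.141 and 0.106 in the caspase-1-deficient embryos. So did *Clec4f*, a lectin of liver Kupffer cells (1.53, 1.08 and 1.28 to 0.221, 0.127 and 0.135 RPKM), *Csrp3*, a LIM protein of striated muscle (3.67, 3.43 and 3.85 to 0.681, 1.01 and 0.102 RPKM), and *2010001M07Rik* (29.4, 34.3 and 33.9 to 2.75, 2.96 and 9.56 RPKM).

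**Figure D4:**
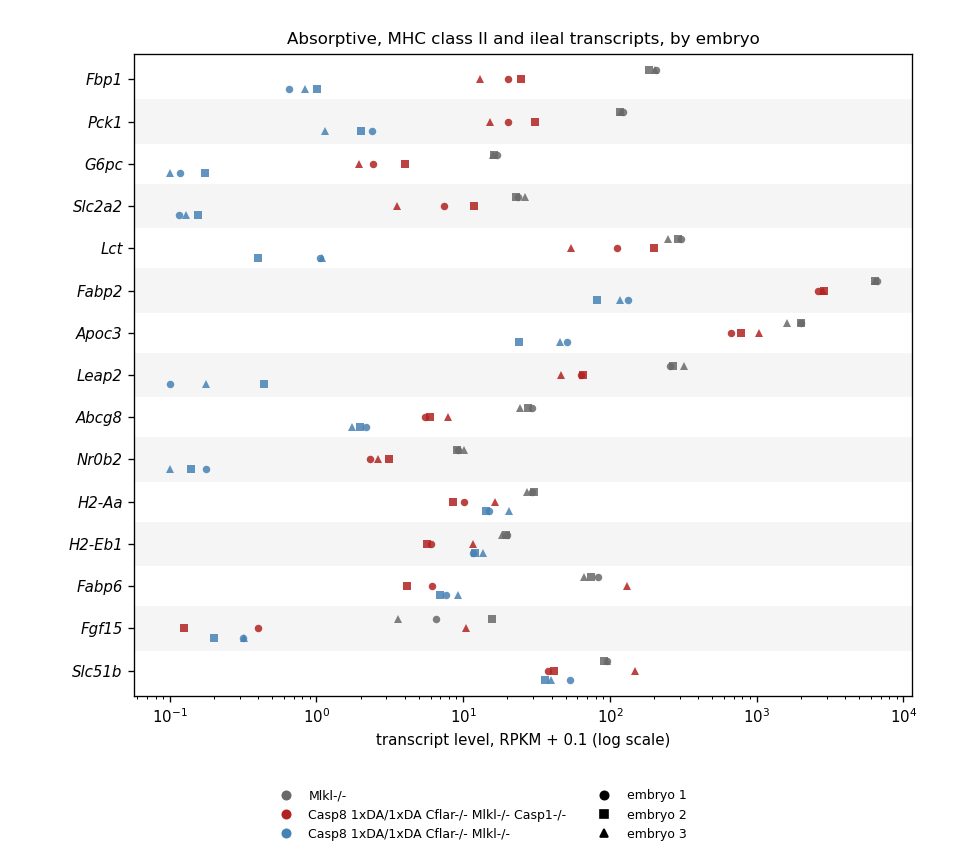
Level in RPKM plus 0.1 (log axis) of genes lower in caspase-1-deficient embryos and of ileal bile acid genes, in each *Mlkl*-/- control (grey), caspase-1-deficient embryo (red) and caspase-1-sufficient embryo (blue), with a marker shape per embryo number. The gluconeogenic genes have 3 red points below the grey ones, while for *Fabp6*, *Fgf15* and *Slc51b* embryo 3 parts from embryos 1 and 2.

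Most transport and digestion genes did not pass, although a larger share of these lists was called lower than the 2.18% of all genes tested. Of 22 genes of lipid absorption and apolipoproteins 4 fell and none rose (median -0.70). *Apoc3*, an apolipoprotein of chylomicrons, fell from 2011, 2011 and 1616 to 664, 782 and 1042 RPKM. Of 22 solute carriers 5 fell and none rose (median -0.58), among them the fructose transporter *Slc2a5* (1.92, 1.83 and 2.41 to 0.518, 0.683 and 0.423 RPKM) and the folate transporter *Slc46a1* (25.8, 23.8 and 24.8 to 7.49, 7.79 and 11.4 RPKM). The count of lower carriers was 3 without embryo 3 and 7 without embryo 2. The glucose transporter *Slc2a2* fell from 23.6, 22.9 and 26.3 to 7.25, 11.8 and 3.42 RPKM. Of 20 brush border hydrolases and structural proteins 2 fell (median -0.40), trehalase (*Treh*, 0.911, 0.77 and 1.0 to 0.133, 0.154 and 0.466 RPKM) and lactase (*Lct*, 303, 291 and 248 to 112, 199 and 54.5 RPKM). *Lct* was lowest in embryo 3, and its call was lost without caspase-1-deficient embryo 1 or 3 or control 1 or 2, the log2 fold change going from -1.76 to -0.85. The caspase-1-sufficient embryos held *Lct* at 0.958, 0.297 and 0.997 RPKM and *Slc2a2* at 0.0155, 0.0562 and 0.0287. Against the same controls they had 16 of the 20 brush border genes and 20 of the 22 lipid genes called lower, with medians of -1.89 and -2.87. In the direct comparison 16 brush border and 19 lipid genes were higher in the caspase-1-deficient than in the caspase-1-sufficient embryos.

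Some genes of the ileum that handle bile acids, but not all of those listed, separated embryo 3 from embryos 1 and 2. *Fabp6*, the ileal bile acid-binding protein, lay at 82.4, 74.6 and 66.4 RPKM in the controls and at 6.07, 4.03 and 129.9 in the caspase-1-deficient embryos. Embryos 1 and 2 were thus more than 10-fold below each control and also below each of the caspase-1-sufficient embryos (7.48, 6.81 and 9.18), and embryo 3 was above the controls. *Fgf15*, the ileal hormone that restrains hepatic bile acid synthesis, lay at 0.301, 0.0248 and 10.4 RPKM against 6.46, 15.5 and 3.48, again with embryos 1 and 2 more than 10-fold below each control but with embryo 3 inside the range of the controls. *Slc51b*, a subunit of the basolateral bile acid exporter, lay at 38, 41.8 and 147 against 95.4, 90.8 and 96.1 RPKM, with embryos 1 and 2 below the controls by a smaller step and embryo 3 above them. As a group neither *Fabp6* (log2 fold change -0.68 ± 0.72, adjusted p = 0.55) nor *Fgf15* (-1.25 ± 0.93, adjusted p = 0.37) passed, and without embryo 3 they stood at -3.88 and -5.68. Of 10 bile acid transport genes 3 fell and none rose in the group, and 7 fell without embryo 3, with medians of -0.84 and -1.51. The 3 called were the sterol exporters *Abcg5* (30.8, 30.7 and 26.4 to 7.98, 9.17 and 16 RPKM) and *Abcg8* (29.4, 27.5 and 24.5 to 5.37, 5.84 and 7.77 RPKM) and the nuclear receptor *Nr0b2*, which bile acids induce (9.13, 9.0 and 10 to 2.21, 3.02 and 2.53 RPKM). The lysosomal protease *Lgmn* also had embryos 1 and 2 low and embryo 3 at control level (402, 382 and 321 against 160.5, 134 and 361 RPKM). In *Bst1*, an ADP-ribosyl cyclase (35, 34.5 and 33.7 against 9.25, 10.6 and 29 RPKM), embryo 3 lay closer to the controls than embryos 1 and 2 did but was still below each control, and the call was lost without embryo 1 or 2.

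Other genes also set embryo 3 apart. *Ly6d*, a stratified epithelial surface protein, was at 0.407, 0.565 and 3.29 RPKM in the controls and 2.14, 0.967 and 54.7 in the caspase-1-deficient embryos, and its log2 fold change was 3.73 with embryo 3 and 0.11 without it. *Gml*, of the same protein family, was at 0.434, 0.39 and 11 against 0.525, 0.137 and 0.608 RPKM, with 3.18 and -0.05 in the same order, and without embryo 3 neither gene was called. Both were also high in the caspase-1-sufficient embryos, at 112, 51.2 and 62 and 5.21, 2.06 and 3.75 RPKM. *Car4*, a membrane-bound carbonic anhydrase of the distal intestine, was lower than each control in embryos 1 and 2 and above them in embryo 3 (0.201, 0.376 and 0.358 against 0.145, 0.0358 and 2.51 RPKM). *Fmo1*, a flavin mono-oxygenase, was the 1 gene called in opposite directions in single embryos, at 1.52, 0.964 and 5.62 RPKM in the caspase-1-deficient embryos and 2.44, 2.24 and 2.75 in the controls.

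Markers of neighbouring organs and of blood moved with the libraries. The summed level of 13 stomach markers, of which 9 could be tested, was 4.73, 5.22 and 354 RPKM in the controls and 2.79, 22.3 and 3.49 in the caspase-1-deficient embryos. Control 3 thus stood apart, and the 5 stomach genes called lower fell to 1 without it. *Gkn1*, *Gkn2* and *Tff1*, gastric mucus cell proteins, changed sign without control 3. Of the 10 liver markers 7 were called lower. That count was 3 without caspase-1-deficient embryo 3 and 4 without embryo 2. It was also 3 without control 2, in which *Ahsg*, a liver plasma protein, stood at 65.4 RPKM (1.37, 65.4 and 0.712 in the 3 controls). *Plg* and *Fgg*, liver plasma proteins among the 15 largest falls, were highest in the same control (0.128, 2.78 and 0.163 and 1.23, 10.5 and 0.836 RPKM), and their calls were lost without it. The *Plg* call was also lost without caspase-1-deficient embryo 2 or 3, and that of *Fgg* without embryo 1 or 3. *Pga5*, a gastric pepsinogen also among those 15, lay at 3.17, 3.97 and 57 RPKM in the controls and 1.06, 1.08 and 1.65 in the caspase-1-deficient embryos and kept its call without any one library, but it did not pass with limma-voom, with DESeq2 or in a fit of the 6 libraries alone. For 12 pancreatic acinar markers, of which 9 could be tested, the sums were 38.1, 38.5 and 97.0 against 10.2, 9.80 and 11.5 RPKM, with 2 called lower, *Cela1* (23.5, 19.3 and 26 to 6.1, 4.69 and 5.92 RPKM) and *Ctrb1*, whose call was lost without control 3 or caspase-1-deficient embryo 1. How much of each fall came with the dissected tissue was not tested.

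Erythroid genes split the embryos the other way. The summed level of 7 such markers was 1273, 853 and 1826 RPKM in the controls and 7177, 3515 and 1246 in the caspase-1-deficient embryos. Embryos 1 and 2 were above each control and embryo 3 was within their range. *Alas2*, the erythroid enzyme of haem synthesis, lay at 62.2, 27.9 and 8.0 RPKM against 8.61, 5.91 and 8.94, and the α-globin gene *Hba-a2*, a near copy of *Hba-a1*, at 629.8, 330.0 and 108 against 125, 78.8 and 154. The *Hba-a2* call was lost without caspase-1-deficient embryo 1 or control 1 or 2. Of the 7 markers 4 were called higher (median 1.55). The count was 6 without embryo 3, 1 without caspase-1-deficient embryo 1 or control 1, and 0 in edgeR's fit of the 6 libraries alone.

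**Figure D5:**
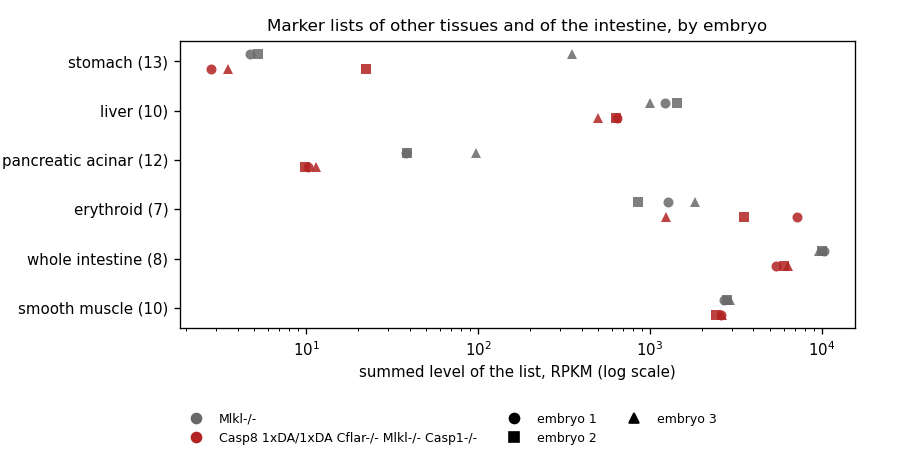
Summed RPKM (log axis) of marker lists for stomach, liver, pancreatic acinar cells, erythroid cells, whole intestine and smooth muscle in each *Mlkl*-/- control (grey) and each caspase-1-deficient embryo (red). Stomach markers are high in control 3 (354 RPKM), and erythroid markers are high in caspase-1-deficient embryos 1 and 2 (7177 and 3515 RPKM).

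Many lists of the tissue's own cells held no called gene, by edgeR, limma-voom or DESeq2. These were goblet cell (12 genes tested, median 0.47), intestinal stem cell (12, 0.21), epithelial transcription factor (19, -0.06), cell cycle (22, 0.30), smooth muscle (10, -0.13), enteric neuron and glia (11, -0.05), fibroblast (10, 0.06) and endothelium (8, 0.14) genes. At an unadjusted p below 0.05 in edgeR there were 4, 5, 10, 18, 0, 3, 1 and 5 of them in the same order, against 33.9% of all genes tested, and the 18 cell cycle genes all had positive log2 fold changes. Leaving out 1 library gave calls in some of these lists, with 2 goblet genes higher without control 3 and 1 without caspase-1-deficient embryo 2. In the same way 1 enteric neuron or glia gene was lower without control 1 or caspase-1-deficient embryo 1 or 2, and 1 fibroblast and 1 endothelial gene were lower without embryo 3. Taken singly, embryos 1, 2 and 3 had medians of 0.23, 0.06 and 0.88 for goblet genes and 0.22, 0.19 and 0.22 for stem cell genes. For epithelial transcription factor genes they were -0.19, -0.07 and 0.002, and for enteric neuron and glia genes 0.01, -0.01 and -0.14. The fibroblast medians were 0.13, 0.01 and -0.05 and the endothelial ones 0.21, 0.08 and 0.20. Of 17 genes listed as enteroendocrine only *Leap2*, which is not specific to enteroendocrine cells, was called. Of 19 xenobiotic metabolism genes 2 fell, and both calls, *Cyp2c55* and *Cyp2d26*, were lost without embryo 1.

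The caspase-1-sufficient embryos, compared with the same 3 controls, had 1726 genes higher (9.4% of genes tested) and 2352 lower (12.8%), 22.2% in all. Of the 1726 higher genes 316 were also called higher in the caspase-1-deficient embryos, which is 18.3% of that list and 79.8% of the 396. Of the 2352 lower genes 350 were also called lower, 14.9% of that list and 87.5% of the 400. The controls are shared, so the directions of both comparisons depend on the same 3 libraries. Tested directly against each other, the caspase-1-deficient embryos had 1631 genes higher (8.88%) and 828 lower (4.51%) than the caspase-1-sufficient ones, 13.4% in all. Of the 396 genes that rose against the controls, 113 were lower than in the caspase-1-sufficient embryos, 54 were higher and 229 were not called. Of the 400 that fell, 247 were higher, 20 lower and 133 not called. *H2-M2* was among the 54, higher by 1.90 on the log2 scale (adjusted p = 2.6e-04), and so was *Ccl20* by 1.27 (adjusted p = 2.2e-04). *Cxcl9* was among the 113, with a log2 difference of -4.69 (adjusted p = 4.1e-08), as was *Il1b* with -3.40 (adjusted p = 1.1e-07). *Fbp1* was among the 247, higher by 4.73 (adjusted p = 3.8e-10).

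Against the controls, 72 of the 396 higher genes and 44 of the 400 lower genes were not called in the caspase-1-sufficient embryos, and 14 were called there in the opposite direction. The 8 that were higher here and lower there included *Slc28a1*, a concentrative nucleoside transporter, at 4.02, 4.49 and 2.73 RPKM against 1.13, 1.03 and 1.07 in the controls and 0.468, 0.515 and 0.163 in the caspase-1-sufficient embryos. *Pnpla3*, a lipid droplet acylhydrolase, lay at 1.19, 1.98 and 1.77 RPKM against 0.565, 0.487 and 0.722 and 0.102, 0.27 and 0.129, and both genes kept their call in each leave-out. The 6 that were lower here and higher there included *Slpi*, an antiprotease of mucosal surfaces, at 2.42, 1.95 and 4.71 RPKM against 5.6, 11.3 and 7.33 and 27, 28.2 and 18.7, and *Gzma*, given above. The *Slpi* call was lost without caspase-1-deficient embryo 1 or 2 or control 2 or 3. These genes were named after their values were seen.

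A second caspase-1-deficient genotype of the series has controls of its own. It carries *Casp8* C362A, a catalytically inactive caspase-8, with *Mlkl* and *Casp1* deleted and *Cflar* intact, as 3 embryos against 3 other *Mlkl*-/- embryos whose titles, like theirs, lack a number such as 11449 or 11893. No label states whether these libraries were sequenced together. It had 1318 genes higher (6.79% of 19408 tested) and 723 lower (3.73%), 10.5% in all. Among the 18196 genes tested in both sets, 267 were higher in both, 68.3% of the 391 here and 22.2% of the 1200 there. In both, 112 genes were lower, 28.6% of the 392 here and 16.2% of the 691 there. All 40 interferon-stimulated antiviral genes rose in the C362A embryos, with a median log2 fold change of 5.21, against 31 here with a median of 2.19. *Cxcl10* rose in both, and the C362A embryos held 137, 171 and 145 RPKM against 0.348, 0.69 and 0.546 in their controls. The difference of the effects on *Cxcl10* missed the threshold (interaction -2.11 ± 0.79 on the log2 scale, adjusted p = 0.051). Over all genes the difference was called in 1468 of 19643 (7.47%), in 564 with the larger value here (2.87%) and in 904 with the larger value in the C362A embryos (4.6%).

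A long non-coding transcript, *Gm42031* (chr8:85125872-85132289, GRCm38), was among the 15 largest falls. It had 234 reads over the controls (1.87, 2.26 and 2.2 RPKM) and 0 over the caspase-1-deficient embryos, at least 86.4-fold lower against a floor of 3 reads over the group. The caspase-1-sufficient embryos held 2.75, 1.85 and 2.37 RPKM. Embryos of the same caspase-1-deficient genotype that also lacked *Fadd* held 0, 0 and 0 RPKM, and those that also lacked *Ifnar1* held 5.18, 6.37 and 2.0. The transcript was therefore listed at 0 in 6 of 9 libraries without caspase-1 in this set and present in the other 3.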

How the data were processed

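RNA from whole E18.5 intestine was sequenced as bulk libraries. The deposited files, 1 per sample, hold a raw read count and an RPKM for 52636 genes. The authors aligned single-end reads with GSNAP to the mouse genome (GRCm38, mm10), kept uniquely mapped ones and summarised them per gene, and the counting program and its strand setting are not given in the sources used here. The labels and the study's methods name different library kits and instruments. Symbols and positions came from GENCODE M21, which matched 52403 identifiers.

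The quasi-likelihood test of edgeR 4.0.16 (R 4.3.3, TMM scaling, filterByExpr with a minimum count of 10) was applied to the counts of the 18 libraries of the D387A set, with Benjamini-Hochberg adjustment over the 18360 genes tested. A gene was called at an adjusted p below 0.05 and a log2 fold change beyond 1. The C362A set was fitted on its own 12 libraries and the difference of effects on all 30. Replicates were separate embryos as the labels state, and every pair of libraries in a group differed by more than sampling noise. RPKM in the text was computed from counts; the RPKM deposited by the authors served as a check. Intervals and floors cover counting error only. Genes that share reads with near copies, and overlapping or antisense genes, are uncertain.

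The genes named were drawn from the targeted genes, those the study displays, the 15 largest rises and falls among called genes whose groups did not overlap (a mean of at least 50 reads in the higher group), up to 3 each way per list, the 15 with the largest range between embryos, and called genes within 5 Mb of *Casp1* or *Casp8*. The comparison, its members and the 42 gene lists were chosen with earlier results of these data known. The pipeline was tested on simulated data. Alternatives were limma-voom 3.58.1, DESeq2 1.42.0, other scalings, filters and terms, and leaving out each library. One result of a gene list is not reported here.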

Additional observations from a re-analysis of the deposited data

Results flagged for a closer look

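Of 5 genes for which the effect here was compared with the effect in the *Casp8* C362A *Mlkl*-/- *Casp1*-/- embryos against their own controls, 3 differed by edgeR's interaction test over 30 libraries. *Il1b* rose more here, by 1.96 on the log2 scale (adjusted p = 0.017), since the C362A embryos held 1.84, 2.18 and 1.36 RPKM against 1.9, 0.724 and 1.58 in their controls. *Mx1* rose less here, with a difference of -3.20 (adjusted p = 0.0032), and the C362A embryos held 205, 249.7 and 196 RPKM against 0.448, 0.65 and 1.54. *Zbp1* rose less here too, with a difference of -3.27 (adjusted p = 0.0064), at 185, 169.8 and 125 RPKM against 0.945, 2.39 and 2.04 in the C362A set. For *Cxcl9* (-0.93, adjusted p = 0.50) and *Cxcl10* the difference did not pass. The genotypes also differ in *Cflar* and were compared with different controls, which cannot be told apart here.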

How the results depend on the processing

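The count of genes called against the *Mlkl*-/- controls, 796, was 684 with limma-voom, 763 with DESeq2, 795 with relative log expression size factors and 783 with sex as a term. It was 524 among genes with a mean of 50 reads or more, where fewer genes were tested, 456 in the fit of the 6 libraries alone, and 3920 with no fold threshold. Leaving out 1 library gave 596 to 990. Against the caspase-1-sufficient embryos the count of 2459 was 1581 among genes with a mean of 50 reads, and 2155 to 2947 with 1 library left out. The ranges were 3960 to 4138 for the caspase-1-sufficient embryos against the controls, 1688 to 2459 for the C362A embryos against theirs, and 951 to 2065 for the difference of effects, the lowest being without C362A-set control 1. Embryo 2 taken singly gave 539 calls without a filter on low counts instead of 343. The causes of these shifts in the 6-library fit and in the leave-outs were not tested.

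Single genes turned with 1 library. Without control 3 the log2 fold changes of *Gkn2*, *Tff1* and *Gkn1* were 2.70, 2.34 and 0.55, and over all leave-outs they ran down to -10.47, -8.80 and -5.98. Without caspase-1-deficient embryo 3 those of *Gml* and *Ppef1* were -0.051 and -1.59, and they ran up to 3.72 and 1.86. Of 101 named genes that were called, 12 lost their call with DESeq2, 27 with limma-voom, 21 without caspase-1-deficient embryo 3, and 26 of the 92 that were tested in the fit of the 6 libraries alone.

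The replicate numbers did not pair the samples: deviations of same-numbered controls and caspase-1-deficient embryos correlated at 0.10, 0.21 and 0.04. With the replicate number as a block 765 genes were called instead of 796, and the other comparisons gave 2431, 4060, 1967 and 1482, the single embryos 571, 300 and 1341. With 3 embryos a group, genes with few reads have wide counting intervals.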

Other observations

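The following genes were in no list and were chosen after their values were seen. Embryo 3 was the highest caspase-1-deficient embryo for the first 4. *Mcpt4*, a connective tissue mast cell chymase, was at 1.27, 0.955 and 1.21 RPKM in the *Mlkl*-/- controls and 3.26, 2.54 and 4.62 in the caspase-1-deficient embryos (log2 fold change 1.59 ± 0.27, edgeR adjusted p = 7.7e-04). *Cma1*, another chymase, was at 1.31, 0.978 and 1.44 against 2.92, 3.05 and 3.46 RPKM (adjusted p = 0.0038), and *Cpa3*, the mast cell carboxypeptidase, at 2.12, 1.74 and 1.79 against 3.64, 3.94 and 4.84 RPKM (adjusted p = 0.0021). The mast cell receptor *Kit*, which interstitial cells of Cajal also express, was at 5.14, 5.42 and 6.25 against 6.88, 6.68 and 7.34 RPKM and was not called. *Cd5l*, a protein secreted by tissue macrophages, was at 0.0495, 0.439 and 0.0491 RPKM in the controls and 4.24, 1.52 and 3.21 in the caspase-1-deficient embryos (adjusted p = 1.6e-04), and *Adgre4*, a macrophage adhesion receptor, at 0.361, 0.617 and 0.43 against 1.73, 1.66 and 1.6 RPKM (adjusted p = 1.1e-04).

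*Gm42031*, which had no read here, was higher in the C362A caspase-1-deficient embryos than in their own controls, by 7.75 ± 1.93 (SE) on the log2 scale by edgeR. Those embryos held 0, 2.82 and 7.04 RPKM, so that 1 of the 3 had no read.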
